A study of Mus musculus with 11 samples.

Results

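The ADAMTS and MMP families of secreted and membrane-bound metalloproteinases, with the tissue inhibitors of metalloproteinases (TIMPs), were examined in a mouse medulloblastoma cell line and in drug-resistant clones of it. The genes were taken by symbol alone: every Adamts gene with a number, every Adamtsl gene (ADAMTS-like, without a catalytic domain), every Mmp gene and the 4 Timp genes. This gave 51 genes (19 Adamts, 5 Adamtsl, 23 Mmp and 4 Timp) of the 22619 genes in the count table. Levels are CPM, counts scaled to the TMM-adjusted size of each library. Of the 51 genes, 29 reached 1 CPM in the mean of at least 1 group, namely 14 Adamts, 4 Adamtsl, 9 Mmp and 2 Timp genes.

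The cells were SMB21, a medulloblastoma line from mice of the strain Ptch1tm1Mps/J, grown as neurospheres, so the Ptch mutant background was shared by all groups. RNA was read as 11 poly(A) libraries in 4 groups. Parental cells were untreated (n = 3) or kept for 24 h with sonidegib, which blocks Smoothened and so the Hedgehog pathway (n = 2). Clones mutant in Sufu, whose protein restrains the Gli transcription factors, gave libraries from clone R13 and clone R1 (n = 2). Clones mutant in Ofd1, a gene of centrioles needed for primary cilia, gave 4 libraries (n = 4) from 3 clones: 2 libraries of R14 (replicates 1 and 2), 1 of R16 (replicate 3) and 1 of R25 (replicate 4). All clones came from a drug resistance screen, and each line is a single clone. Whether drug was present in their cultures is not stated. The labels call the parental, sonidegib and R14 libraries biological replicates without naming separate cultures. Those of R13, R1, R16 and R25 carry no replicate label, and their replicate numbers were given here. The p-values therefore measure the spread between these libraries. That spread may be technical in part, lies between clones in the Sufu group, and lies both between and within clones in the Ofd1 group.

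Metalloproteinases of both families cut components of the extracellular matrix. ADAMTS enzymes are grouped by substrate into procollagen N-proteinases, which trim procollagens, proteoglycanases, which cut aggrecan, versican and brevican, and enzymes tied to fibrillin microfibrils. MMPs comprise collagenases, gelatinases, stromelysins, matrilysins and membrane-type enzymes, and TIMPs bind and block their active sites. In brain and in its tumours the matrix is rich in hyaluronan and in the proteoglycans brevican, neurocan and versican, and poor in fibrillar collagen.

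Totals ran from 24308451 to 38241595 counts per library. Parental replicates 1 and 2 and sonidegib replicate 1 lay together on the second principal component (17.2% of the variance over 10941 genes, scores 26.2 to 35.7), apart from all other libraries (-23.5 to -3.31), and parental replicate 3 lay with the clones. The sonidegib libraries differed from each other the most of any replicate pair (SD of log2 differences 0.827, against 0.209 for parental replicates 1 and 2 and 0.322 to 0.580 for pairs of the same clone class). Deviations in sonidegib replicate 2 followed transcript length (correlation across 10357 genes -0.455, against -0.0758 to 0.154 in the other libraries), and the 31 genes of the families tested in that comparison were long (median exon length 6282 bases, all genes 4419.5). Counts among the 29 genes that reached 1 CPM are given without the share of all genes, which was not computed. The sonidegib libraries differed over 2-fold in 12 of them. Parental replicate 3 was over 2 times the mean of the other parental libraries in 7, led by Adamts15 (5.33 times). For the main results that rest on these libraries, values with and without them are given. This was not done for every gene named.

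Markers of granule cell progenitors, the cells this tumour type resembles, were abundant. The summed level of 7 of them was 1494 to 3260 CPM over the libraries, highest in those with sonidegib. Microglia and macrophage markers summed to at most 0.402 CPM, and endothelial markers to at most 13.9 CPM. Of the endothelial markers Cldn5 was at 0, while Cdh5 reached 12.5 CPM in a library. The mean of Cdh5 was 3.85 CPM in parental cells, 0.335 with sonidegib, 1.99 in the Sufu clones and 5.27 in the Ofd1 clones. DESeq2 called Cdh5 lower with sonidegib, and edgeR did not. Of 9 fibroblast and pericyte markers only Pdgfra and Cspg4 passed 1.09 CPM. Gli1, the Hedgehog target used as a check of the drug, stood at 224, 219.6 and 243 CPM in the parental libraries and at 7.68 and 8.82 CPM with sonidegib. It fell by 4.80 ± 0.24 on the log2 scale (SE, edgeR quasi-likelihood test, adjusted p = 0.00287). The Sufu clones held 229 and 238 CPM of Gli1, and the Ofd1 clones 143, 126, 187 and 69.9 CPM. Ofd1 transcript was 9.27 to 23.4 CPM in the Ofd1-mutant libraries against 35.4 to 42.9 CPM in the parental ones, and Sufu transcript was 2.76 CPM in R13 and 17.7 CPM in R1, with 27.7 to 29.6 CPM in parental libraries, but it was also under the parental range in both sonidegib libraries (24.8 and 5.60 CPM) and in the Ofd1 clones (12.0 to 19.2 CPM).

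Per kilobase of exon, the families were led by proteoglycanases. Adamts20, which cuts versican, had a mean level of 26.8 CPM per kb over the 11 libraries, and Adamts1, a versicanase and aggrecanase, had 22.1 CPM per kb. Mmp14, the first membrane-type MMP and an activator of the gelatinase Mmp2, followed with 9.31, then Adamts4, an aggrecanase that also cuts brevican, with 7.87, and Adamts14, a procollagen N-proteinase, with 7.47 CPM per kb. These 3 cannot be ranked firmly, since their ranges over libraries overlapped in the plot of levels per kb. The ranges of Adamts20 (17.6 to 53.1 CPM per kb) and Adamts1 (7.19 to 34.8) also overlapped each other, and that of Adamts1 overlapped those of the 3. Adamts10, a fibrillin-associated enzyme, came next with a mean of 7.19 CPM per kb. Mmp15, another membrane-type MMP, had 5.46 CPM per kb, and the inhibitors Timp2 and Timp3 had 2.90 and 2.54 CPM per kb.

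**Figure D1:**
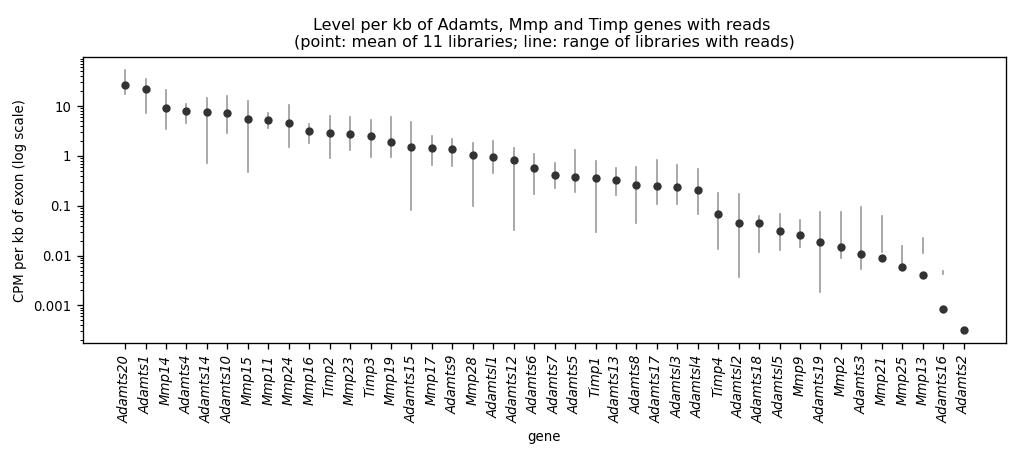
Level per kb of exon (CPM per kb, log axis) for the 42 genes with at least 1 count. Points are means of 11 libraries and lines span the libraries with reads. Adamts20 (26.8) and Adamts1 (22.1) lie highest, and levels span more than 4 orders of magnitude down to Adamts2, with 1 count in all.

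By role, detection was uneven. All 7 proteoglycanases reached 1 CPM, as did both fibrillin-associated enzymes (Adamts6, Adamts10), 4 of 5 ADAMTS-like genes, 5 of 6 membrane-type MMPs and 2 of 4 Timps. Of the 3 procollagen N-proteinases only Adamts14 did, while Adamts2 had 1 count and Adamts3 16 counts in all libraries together. None of the 4 collagenases and neither gelatinase reached it. Mmp2, the substrate that Mmp14 activates, had 18 counts in all and at most 0.253 CPM in a library, and Mmp9 had 32 counts. Of 4 stromelysins and matrilysins only Mmp11 did. By group, 26 of the 51 genes reached 1 CPM in the parental mean, 26 with sonidegib, 27 in the Sufu clones and 28 in the Ofd1 clones. By library the number was 24 to 28, and 20 genes reached it in every library.

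A set of 9 MMP genes had no count in any library: Mmp1a, Mmp1b, Mmp3, Mmp7, Mmp8, Mmp10, Mmp12, Mmp20 and Mmp27. A count of 0 allows up to 3 counts, or 0.0784 to 0.123 CPM in a library, for counting error only. Mmp1a and Mmp1b are related genes, and any reads shared between them may not have been counted by the authors. In RefSeq annotation of GRCm38.p6, all 9 start within 1 cluster of 10 Mmp genes on chromosome 9, whose windows of 250 bases before the start lie between positions 7272264 and 7692340 (420077 bases). The 10th gene, the collagenase Mmp13, had 4 counts in all. The cluster holds collagenases (Mmp1a, Mmp1b, Mmp8, Mmp13), stromelysins (Mmp3, Mmp10), the matrilysin Mmp7, the macrophage elastase Mmp12, the enamel enzyme Mmp20 and Mmp27.

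These upstream windows are shown because the silent cluster had a sequence feature in common. The letters TGANTCA, the binding motif of the AP-1 factors, which read the same on both strands, were in the windows of 8 of the 10 cluster genes and of 0 of the 26 other genes of the families that had a window. Of 32851 RefSeq windows of the same length, 6.75% held them. The cluster windows had 37.2% to 53.2% G and C, the other windows 53.6% to 80.0%. A match is a description of letters and not a shown binding site. Windows were matched by symbol for 36 of the 51 genes. Those of Mmp13 (chr9:7272264-7272513, + strand) and Mmp3 (chr9:7445572-7445821, + strand) end at the base before the start and carry the AP-1 letters, in capitals, beginning 35 and 46 bases before it.
Mmp13: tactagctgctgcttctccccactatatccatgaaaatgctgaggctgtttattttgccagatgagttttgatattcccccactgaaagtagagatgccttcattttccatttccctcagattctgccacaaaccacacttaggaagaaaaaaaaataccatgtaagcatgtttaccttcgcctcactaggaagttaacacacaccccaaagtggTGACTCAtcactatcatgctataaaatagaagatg
Mmp3: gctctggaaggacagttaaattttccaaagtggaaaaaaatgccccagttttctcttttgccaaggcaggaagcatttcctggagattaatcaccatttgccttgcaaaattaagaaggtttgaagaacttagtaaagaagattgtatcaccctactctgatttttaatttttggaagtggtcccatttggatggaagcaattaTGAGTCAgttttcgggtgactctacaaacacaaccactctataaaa

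The heat map of all genes that reached 1 CPM shows the pattern described next. Adamts14, Mmp15 and Adamts1 were low with sonidegib. Adamts15 was high in both clone classes, and Mmp15 and Timp3 were high in the Ofd1 clones.

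**Figure D2:**
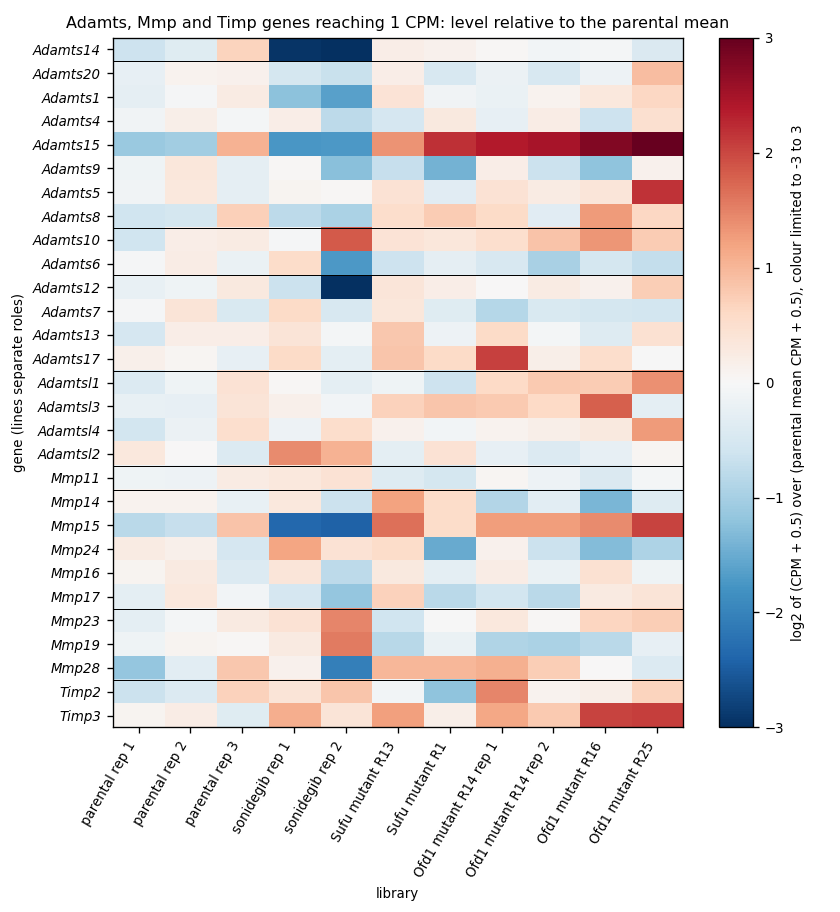
Level of the 29 genes that reached 1 CPM in each of the 11 libraries, as log2 of (CPM + 0.5) over (parental mean CPM + 0.5), with colour limited to -3 and 3 and lines between roles. Adamts14 and Mmp15 are blue in both sonidegib libraries, and Adamts15 is red in all 6 clone libraries.

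With sonidegib, the 3 genes with the lowest p were a procollagen N-proteinase, a membrane-type MMP and a proteoglycanase, each at a lower level. Adamts14 stood at 30.1, 36.3 and 74.2 CPM in the parental libraries (46.9 ± 23.8, SD, n = 3) and at 5.71 and 3.69 CPM with sonidegib (4.70 ± 1.42, SD, n = 2). Its mean was 9.97 times lower with the drug, and the highest treated library was under the lowest parental one. Mmp15 stood at 9.05, 9.90 and 30.0 CPM (16.3 ± 11.9) against 2.77 and 2.62 CPM (2.70 ± 0.105), a mean 6.06 times lower, again without overlap. Adamts1 stood at 99.0, 118 and 143 CPM against 50.5 and 38.1 CPM, a mean 2.71 times lower, also without overlap. In a bulk library, fewer cells of a type and less RNA per cell cannot be told apart.

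None of these differences passed the main test. The log2 fold change of Adamts14 was -3.32 ± 0.50 (SE, edgeR adjusted p = 0.0847), that of Adamts1 -1.44 ± 0.26 (adjusted p = 0.100) and that of Mmp15 -2.60 ± 0.64 (adjusted p = 0.183). The edgeR test called 0 of 31 genes of the families tested, where 0.0652% of all 13809 genes were called. At an unadjusted p under 0.05 it held 9 of 31 (4 higher, 5 lower), where 14% of all genes did (7.18% higher, 6.86% lower). DESeq2 called 3 of 31, where it called 5.17% of all genes: Adamts14, Mmp15 and Adamts1, all lower (adjusted p = 1.23e-09, 4.43e-04 and 1.00e-04). Groups did not overlap for 14 of 31 genes (background 34.3%), 8 lower (background 16.3%) and 6 higher (background 18%). The median log2 fold change over the 31 genes was -0.09, against 0.04 over all genes tested, and the median absolute change was 0.64 against 0.38.

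The call for these 3 genes turned on which libraries were compared. With sonidegib replicate 1 set against parental replicates 1 and 2, a comparison chosen after seeing the data, edgeR called 6 of the 31 genes, where 10.1% of all genes were called. A lone treated library was assumed here to vary like the parental ones. Adamts14 (log2 fold change -2.56), Mmp15 (-1.79) and Adamts1 (-1.12) were lower there, and Mmp24 (0.99), Timp2 (0.94) and Timp3 (0.94) were higher. Without sonidegib replicate 1, 9 genes were called (background 23%), among them Adamts14 (-3.71) and Adamts1 (-1.71) but not Mmp15 (-2.69, adjusted p = 0.0881). Without parental replicate 3, the log2 fold change of Adamts14 was -2.85 and that of Mmp15 -1.84, and none of the 31 genes was called (background 0%).

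The windows before the starts of these 3 genes are shown because DESeq2 called these genes lower with the drug. The Gli-binding letters GACCACCCA, searched on both strands, were in none of the windows of the 36 matched genes and in 0.225% of all 32851 windows, and none of the 3 held the AP-1 letters. The absence of these letters in 250 bases says nothing about factors bound elsewhere. The windows are those of Adamts14 (chr10:61273420-61273669, - strand), Mmp15 (chr8:95352046-95352295, + strand) and Adamts1 (chr16:85803114-85803363, - strand), each read towards the gene and ending at the base before its start.
Adamts14: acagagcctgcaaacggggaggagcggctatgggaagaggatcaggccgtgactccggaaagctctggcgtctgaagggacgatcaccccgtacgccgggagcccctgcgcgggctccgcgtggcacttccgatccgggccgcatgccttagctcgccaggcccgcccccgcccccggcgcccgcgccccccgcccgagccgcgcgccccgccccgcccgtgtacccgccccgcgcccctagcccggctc
Mmp15: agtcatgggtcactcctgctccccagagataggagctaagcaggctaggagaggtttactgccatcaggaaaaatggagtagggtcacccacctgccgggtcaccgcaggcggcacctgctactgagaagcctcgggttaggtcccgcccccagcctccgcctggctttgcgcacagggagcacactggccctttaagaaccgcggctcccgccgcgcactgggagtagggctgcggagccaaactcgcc
Adamts1: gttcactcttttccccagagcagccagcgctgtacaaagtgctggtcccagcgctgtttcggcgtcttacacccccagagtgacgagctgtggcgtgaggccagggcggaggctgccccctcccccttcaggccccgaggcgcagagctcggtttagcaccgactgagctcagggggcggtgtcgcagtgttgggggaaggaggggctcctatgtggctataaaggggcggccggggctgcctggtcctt

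**Figure D3:**
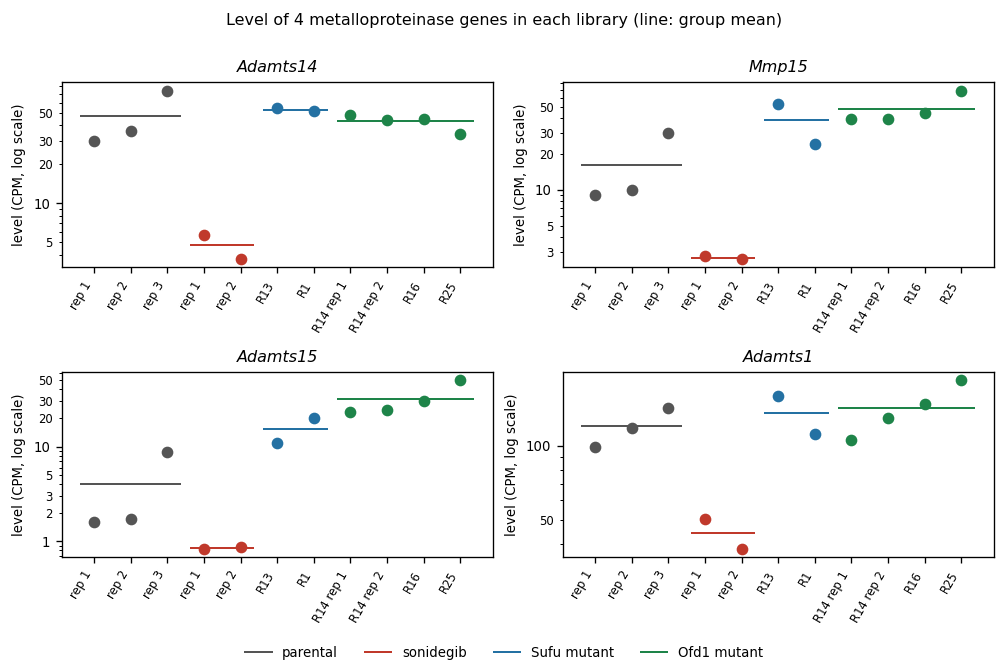
Level (CPM, log axis) of Adamts14, Mmp15, Adamts15 and Adamts1 in each library, with group means as lines. Both sonidegib libraries lie below all parental libraries in each panel, and for Adamts15 all 6 clone libraries (10.9 to 50.0 CPM) lie above all parental ones (1.58 to 8.74 CPM).

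Among the other proteoglycanases, Adamts15 stood at 1.58, 1.70 and 8.74 CPM in the parental libraries and at 0.834 and 0.864 CPM with sonidegib (log2 fold change -2.24 ± 0.90, edgeR adjusted p = 0.352). Without parental replicate 3 its log2 fold change was -0.98. Adamts8, at 0.411, 0.451 and 1.77 CPM against 0.300 and 0.209 CPM, was also lower without overlap (-1.78 ± 0.86, adjusted p = 0.396). Adamts20, the most abundant gene of the families, stood at 212, 268 and 272 CPM against 175 and 158 CPM (-0.60 ± 0.22, adjusted p = 0.328). The lower levels did not extend to every proteoglycanase: Adamts4 (35.9, 43.8 and 37.1 CPM against 44.7 and 22.2 CPM) and Adamts9 (24.0, 33.5 and 21.7 CPM against 27.0 and 10.8 CPM) overlapped between groups. Adamts12, which cuts cartilage oligomeric matrix protein, was 7.75, 8.23 and 11.3 CPM in the parental libraries and 5.67 and 0.358 CPM with sonidegib, so its log2 fold change of -1.59 ± 0.96 (adjusted p = 0.460) rested on sonidegib replicate 2 and was -0.70 without it.

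The 6 genes that stood higher with sonidegib without overlap were Adamtsl2, Mmp19, Mmp23, Mmp24, Timp3 and Mmp11. Mmp24, Timp3 and Mmp11 had the higher parental means among them, and values of Mmp24 and Timp3 are given further below. The mean of Mmp11 was 14.8 CPM in the parental libraries and 19.3 CPM with sonidegib (log2 fold change 0.38 ± 0.27, edgeR adjusted p = 0.517). Adamtsl2, an ADAMTS-like protein of microfibrils, was 0.380, 0.212 and 0.0295 CPM in the parental libraries and 1.40 and 0.953 CPM with sonidegib (log2 fold change 2.49 ± 0.83, edgeR adjusted p = 0.288). It reached 1 CPM in the mean of the sonidegib group only. Mmp19, a secreted MMP, was 6.17, 7.22 and 7.06 CPM against 8.34 and 20.9 CPM (1.09 ± 0.43, adjusted p = 0.344), and Mmp23, an MMP with an unusual cysteine-rich end, was 3.86, 4.65 and 5.97 CPM against 6.74 and 14.1 CPM (1.10 ± 0.43, adjusted p = 0.345). Neither pair of groups overlapped, but the size came from sonidegib replicate 2, and without it the changes were 0.27 and 0.46.

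The 7 granule cell progenitor markers summed to 2989 to 3260 CPM with sonidegib against 1841 to 1946 CPM in the parental libraries. Of these 7, 5 lay above the parental libraries without overlap (background 18%) and 0 below (background 16.3%). DESeq2 called Barhl1 higher, and edgeR called none. Of the markers of other cell types, the 9 fibroblast and pericyte markers summed to 55.6 to 82.3 CPM with sonidegib against 152.6 to 373 CPM in the parental libraries, carried by Pdgfra, while Pdgfrb and Dcn were at or near 0. The sums of the 7 astrocyte markers overlapped (506 to 888 CPM against 388 to 638 CPM), with Aqp4 at or near 0. Of the 5 tested, Gfap alone lay above the parental libraries without overlap, at 101 and 106 CPM against 14.02, 15.9 and 35.5 CPM, and the median log2 fold change of the 5 was 0.11. The part of these markers in the differences of Adamts14, Mmp15 and Adamts1 was not tested.

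In the Sufu-mutant clones, Adamts14, Adamts15, Mmp15 and Adamts1 did not lie below the parental libraries. The same 3 parental libraries serve as controls here and in the other comparisons. Adamts14 had 54.0 CPM in R13 and 51.3 CPM in R1 (52.7 ± 1.90, SD, n = 2), within the parental range of 30.1 to 74.2 CPM. Adamts15 stood at 10.9 and 19.99 CPM, above all 3 parental libraries, with a log2 fold change of 1.96 ± 0.79 (SE, edgeR adjusted p = 0.508). Mmp15 stood at 52.6 and 24.3 CPM, so that clone R1 lay under parental replicate 3 (30.0 CPM), and its log2 fold change was 1.25 ± 0.60 (adjusted p = 0.575). Adamts1 stood at 159.8 and 112 CPM, overlapping the parental libraries. In clone R1, but not in R13, Adamts20 (178 CPM) and the membrane-type Mmp17 (5.71 CPM) were under the lowest parental library (212 and 8.32 CPM). These fold changes depend on which parental library serves as control: against parental replicate 3 alone they were 0.83 for Adamts15, 0.37 for Mmp15 and -0.48 for Adamts14.

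Mmp14 and Mmp28 were higher in both Sufu clones than in any parental library, and Adamts9 was lower. Mmp14 had 127 CPM in R13 and 80.3 CPM in R1 (103 ± 32.8, SD, n = 2) against 58.8, 58.8 and 46.6 CPM in the parental libraries (54.7 ± 7.06, SD, n = 3), without overlap and 1.89 times higher in the mean. Its log2 fold change was 0.93 ± 0.23 (edgeR adjusted p = 0.355, DESeq2 adjusted p = 0.0324). Adamts9, a proteoglycanase, stood lower at 16.2 and 9.49 CPM (-1.02 ± 0.32, edgeR adjusted p = 0.447). Adamtsl3, an ADAMTS-like matrix protein (2.12 and 2.39 CPM against 0.886, 0.876 and 1.62 CPM) and Mmp28, known as epilysin (6.85 and 6.76 CPM against 1.14, 2.44 and 5.91 CPM), stood above the parental libraries without overlap. Both sizes depended on the setting. The log2 fold change of Mmp28 was 1.12 ± 0.65 (edgeR adjusted p = 0.630) and ran from 0.21 to 1.94 over the alternatives. That of Adamtsl3 was 1.01 ± 0.47 (edgeR adjusted p = 0.558) and ran from 0.48 to 1.37. The 7 granule cell progenitor markers summed to 1494 to 1584 CPM in the Sufu clones against 1841 to 1946 CPM, the 7 astrocyte markers to 329 to 412 CPM against 388 to 638 CPM, and the 7 oligodendrocyte markers to 193 to 479 CPM against 151 to 369 CPM, carried by Pdgfra. DESeq2 called Barhl1, Gfap and Slc1a3 lower and Olig2 and Sox10 higher, Sox10 at 0.160 and 2.81 CPM against at most 0.0295 CPM, while edgeR called none of the 3 lists' genes, and their part in these differences was not tested.

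Across the families, edgeR called 0 of 33 genes of the families, where 0% of all 13854 genes were called, and at an unadjusted p under 0.05 it held 4 of 33 (background 9.68%), 2 higher (background 4.93%) and 2 lower (background 4.75%). DESeq2 called 1 of 32 genes, Mmp14, where it called 2.31% of all genes. Groups did not overlap for 12 of 33 genes (background 26.7%), with 7 higher (background 11.9%) and 5 lower (background 14.8%). The median log2 fold change of the 33 genes was 0.15, against 0.00 over all genes, and no gene of the families was called by edgeR when any 1 library was left out.

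In the Ofd1-mutant clones, the proteoglycanase Adamts15, the inhibitor Timp3 and the membrane-type Mmp15 had the lowest p and stood above the parental cells. Adamts15 was 22.9 and 24.5 CPM in the libraries of clone R14, 30.6 CPM in R16 and 50.0 CPM in R25 (32.0 ± 12.4, SD, n = 4) against 1.58, 1.70 and 8.74 CPM (4.01 ± 4.10, SD, n = 3), 7.98 times higher in the mean. Mmp15 was 39.7 and 39.6 CPM in R14, 44.7 CPM in R16 and 68.6 CPM in R25 (48.2 ± 13.8) against 9.05, 9.90 and 30.0 CPM, 2.95 times higher. Both genes lay above every parental library in every clone. Adamts14 did not share this: at 48.0, 44.3, 45.0 and 34.4 CPM it lay within the parental range, with a log2 fold change of -0.12 ± 0.29 (SE, edgeR adjusted p = 0.899).

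The log2 fold change of Timp3 was 1.67 ± 0.36 (SE, edgeR adjusted p = 0.0946), that of Adamts15 3.01 ± 0.66 (adjusted p = 0.102) and that of Mmp15 1.57 ± 0.45 (adjusted p = 0.175). The edgeR test called 0 of 30 genes of the families, where 0.363% of all 13779 genes were called. At an unadjusted p under 0.05 it held 8 of 30 (background 13.8%), 5 higher (background 7.58%) and 3 lower (background 6.2%). DESeq2 called 5 of 31, all higher, where it called 5.48% of all genes: Adamts15 (adjusted p = 7.21e-06), Timp3 (1.53e-04), Mmp15 (0.00577), Adamts10 (0.0205) and Adamtsl1 (0.0221). Groups did not overlap for 9 of 30 genes (background 13.4%), with 5 higher (background 6.17%) and 4 lower (background 7.25%). The median log2 fold change of the 30 genes was 0.26 against 0.01 over all genes, and the median absolute change was 0.69 against 0.18.

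The size of the differences of Adamts15 and Mmp15 turned on parental replicate 3. Without it, edgeR called 2 of 30 genes (background 2.36%), Adamts15 with a log2 fold change of 4.28 (adjusted p = 0.00702) and Mmp15 with 2.34 (adjusted p = 0.0143), while Timp3 stood at 1.49 (adjusted p = 0.112). Parental replicates 1 and 2 lay apart from all clones on the second principal component. Clone class and that split cannot be told apart in the comparison without parental replicate 3. With it as the only control, the log2 fold changes were 1.88 for Adamts15, 0.69 for Mmp15 and 2.05 for Timp3, and none was called. The log2 fold change of Adamts14 turned to 0.37 without this library. The 7 astrocyte markers summed to 210.1 to 365 CPM in the Ofd1 libraries against 388 to 638 CPM in the parental ones, with Aqp4 at or near 0, and their part in these differences was not tested.

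Of the fibrillin-associated enzymes, Adamts10, named here because DESeq2 called it, stood at 52.2, 67.6, 92.6 and 63.2 CPM against 24.1, 42.4 and 44.2 CPM (log2 fold change 0.91 ± 0.26, edgeR adjusted p = 0.176). Adamtsl1, a matrix glycoprotein known as punctin, stood at 14.4, 16.4, 16.2 and 24.99 CPM against 6.84, 8.44 and 12.7 CPM (0.96 ± 0.28, adjusted p = 0.181). Both lay above all parental libraries. The other fibrillin-associated enzyme, Adamts6, lay below them at 3.91, 2.66, 3.804 and 3.27 CPM against 5.51, 6.69 and 4.84 CPM (-0.73 ± 0.25, adjusted p = 0.242). Also on the lower side, Mmp14 stood at 29.7, 43.8, 21.0 and 41.7 CPM against 58.8, 58.8 and 46.6 CPM (-0.68 ± 0.25, adjusted p = 0.271), and Mmp19 at 3.42, 3.31, 3.67 and 5.66 CPM against 6.17, 7.22 and 7.06 CPM (-0.75 ± 0.26, adjusted p = 0.247). Adamts20 stood at 221, 178, 225 and 477 CPM with R25 highest, and Adamts1 (105, 130.0, 148 and 184 CPM), Adamts4 (32.5, 45.7, 25 and 54.2 CPM) and Adamts12 (9.19, 10.9, 10.0 and 15.4 CPM) overlapped the parental libraries.

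Clone R25 gave the highest of the 4 Ofd1 libraries for 14 of the 29 genes. It was over 2 times the mean of the other 3 libraries for 4 of them, among which Adamtsl2 had only 9 counts in R25. Without clone R25, the log2 fold change was 2.70 for Adamts15, 1.34 for Mmp15 and 1.47 for Timp3. The libraries of clone R14 differed over 2-fold for 4 of the 29 genes, and those of Sufu clones R13 and R1 for 7. The shares of all genes were not computed for these counts, so nothing particular to the families is read from them. With the R14 libraries summed to 1, the log2 fold changes were 3.12, 1.65 and 1.82 in the same order.

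**Figure D4:**
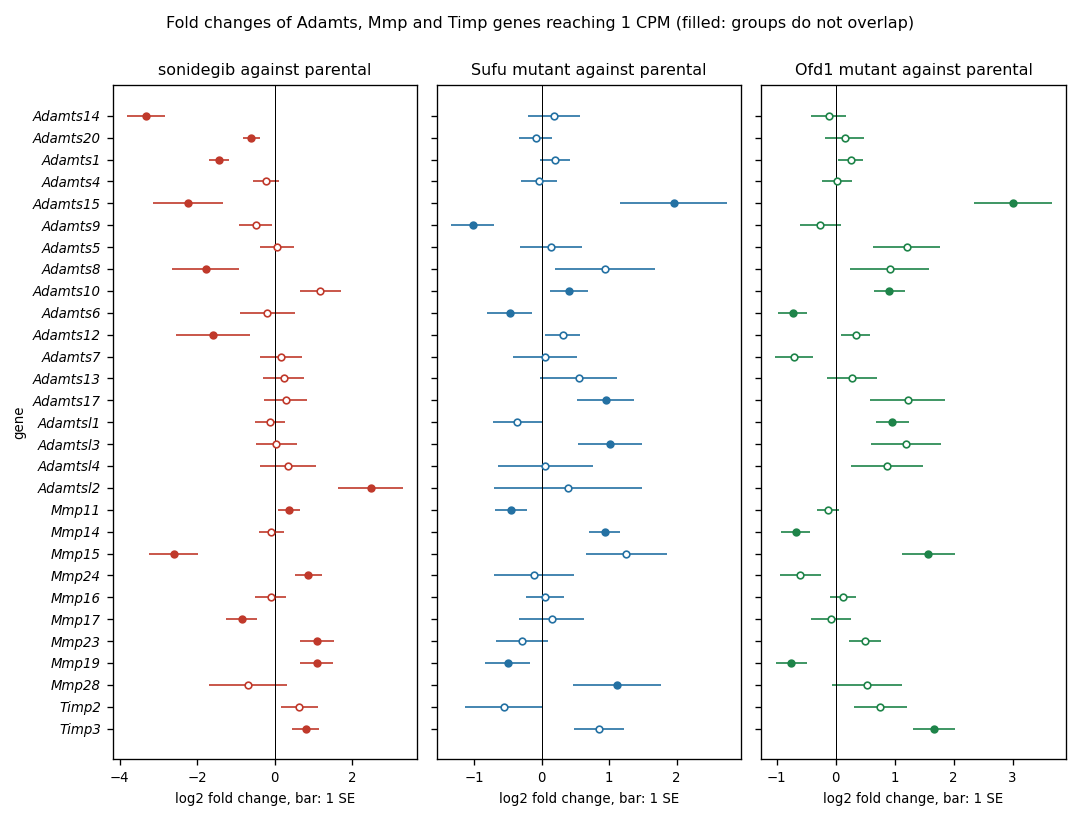
Log2 fold change with 1 SE for the 29 genes that reached 1 CPM, for sonidegib, Sufu mutant and Ofd1 mutant against parental on separate x axes. Filled points mark groups without overlap, and Adamts14 is at -3.32 with sonidegib but 0.18 and -0.12 in the clones.

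Between the clone classes, Mmp14 had the lowest p of the families. It was 127 and 80.3 CPM in the Sufu clones and 21.0 to 43.8 CPM in the Ofd1 clones, 3.04 times higher in the Sufu mean and without overlap (log2 fold change of Ofd1 over Sufu -1.62 ± 0.32, edgeR adjusted p = 0.288, DESeq2 adjusted p = 7.32e-04). Adamtsl1 differed the other way, at 8.54 and 5.84 CPM in the Sufu clones and 14.4 to 24.99 CPM in the Ofd1 clones (1.30 ± 0.31, edgeR adjusted p = 0.343, DESeq2 adjusted p = 0.00525). Adamts15 was 10.9 and 19.99 CPM against 22.9 to 50.0 CPM (1.04 ± 0.40, edgeR adjusted p = 0.528). Mmp15 overlapped between the classes (0.31 ± 0.37, adjusted p = 0.834), and its direction turned without clone R1, at -0.15. The edgeR test called 0 of 32 genes of the families (0.00713% of all 14026 genes were called), and at an unadjusted p under 0.05 it held 4 of 32 (background 8.93%), 3 higher (background 4.26%) and 1 lower (background 4.68%). DESeq2 called 2 of 33, Mmp14 and Adamtsl1, where it called 1.85% of all genes. Groups did not overlap for 9 of 32 genes (background 18.2%), 6 higher in the Ofd1 clones (background 9.85%) and 3 lower (background 8.34%).

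Of the inhibitors, Timp2 and Timp3 reached 1 CPM and Timp1 and Timp4 did not in any group mean. Timp3, which binds the matrix and also blocks ADAMTS enzymes, was 10.7, 11.7 and 7.65 CPM in the parental libraries (10.0 ± 2.13, SD, n = 3) and 21.9 and 13.3 CPM with sonidegib (17.6 ± 6.02, SD, n = 2). It was 24.3 CPM in Sufu clone R13 and 11.5 CPM in R1, and 23.1, 17.6, 42.2 and 43.8 CPM in the Ofd1 libraries (31.7 ± 13.3, SD, n = 4). The order of means was Ofd1, Sufu, sonidegib and parental, but the Sufu and sonidegib libraries overlapped each other, and only the sonidegib and Ofd1 libraries lay wholly above the parental ones.

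Timp2, which with Mmp14 takes part in the activation of Mmp2, was 5.41, 6.50 and 14.4 CPM in the parental libraries, 11.6 and 15.97 CPM with sonidegib, 8.25 and 3.49 CPM in Sufu clones R13 and R1, and 25.2, 9.50, 10.0 and 14.2 CPM in the Ofd1 libraries. All Ofd1 libraries lay above both Sufu libraries (log2 fold change 1.31 ± 0.54, SE, edgeR adjusted p = 0.550), while each of the 3 groups overlapped the parental libraries. Timp4 was 0.475, 0.611 and 0.443 CPM in the parental libraries, 0.601 and 1.07 CPM with sonidegib, 0.0801 and 0.0840 CPM in the Sufu clones and 0.104 to 0.342 CPM in the Ofd1 clones. The log2 fold change in the Sufu clones was -2.56 ± 0.66 (SE, edgeR adjusted p = 0.368), near the level that a count of 0 allows. Timp1 was at most 0.714 CPM in any library.

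**Figure D5:**
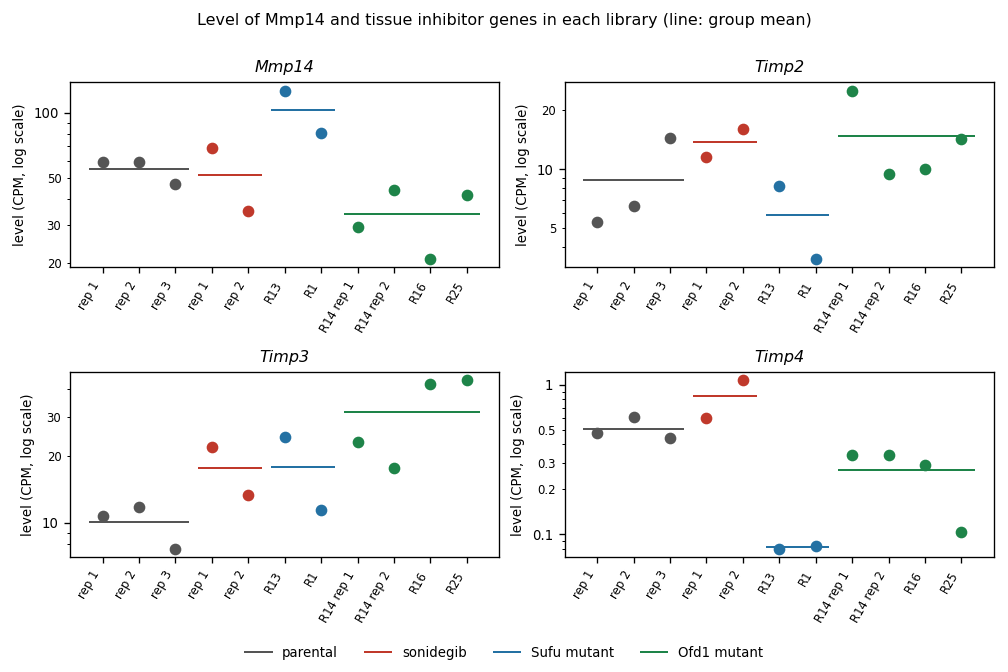
Level (CPM, log axis) of Mmp14, Timp2, Timp3 and Timp4 in each library, with group means as lines. Mmp14 lies above the parental libraries in both Sufu clones (80.3 and 127 CPM) and below them in all 4 Ofd1 libraries (21.0 to 43.8 CPM), and Timp3 lies above them in all 4 Ofd1 libraries.

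Substrates and regulators of these enzymes were read from lists. For the counts that follow, the shares of all genes at an unadjusted p under 0.05 were 14% with sonidegib, 9.68% in the Sufu clones and 13.8% in the Ofd1 clones, and DESeq2 called 5.17%, 2.31% and 5.48%. Among 8 hyalectans and link proteins, which the proteoglycanases cut or which anchor the cut chains, 4 were tested and none passed edgeR or DESeq2 in any comparison, while 2 had an unadjusted p under 0.05 in edgeR, both lower in the Ofd1 clones. Brevican (Bcan) was 30.9, 47.7 and 113 CPM in the parental libraries and 31.0 and 62.6 CPM with sonidegib, and in Sufu clones R13 and R1 it was 114 and 134 CPM (log2 fold change 0.97 ± 0.51, edgeR adjusted p = 0.601). The Ofd1 libraries, at 64.97, 151.7, 178.5 and 11.2 CPM of Bcan, held both the highest and the lowest of the 11 values. Fibrillar collagens, only some of which are known substrates of procollagen N-proteinases, were scarce. Of 11, 6 were tested and edgeR called none in any comparison (3 had an unadjusted p under 0.05, all with sonidegib). Their sum was 39.8 to 50.0 CPM in parental cells and 18.6 to 21.9 CPM with sonidegib. In parental cells most of that was Col27a1, at 26.9, 29.9 and 24.5 CPM against 2.97 and 5.87 CPM with sonidegib (log2 fold change -2.63 ± 0.38, edgeR adjusted p = 0.0847). DESeq2 called 2 fibrillar collagens lower with sonidegib, Col27a1 and Col5a1, and none in the clones.

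Of 23 basement membrane components 18 were tested in each comparison with parental cells, and edgeR called 1. Col18a1, the source of endostatin, was higher in the Ofd1 clones, at 132, 103, 62.7 and 37.8 CPM against 3.83, 4.75 and 2.84 CPM (log2 fold change 4.46 ± 0.47, SE, edgeR adjusted p = 0.0233). This fit took both libraries of clone R14, the highest here, as separate replicates. With parental replicate 1 or parental replicate 2 left out, edgeR called 0 of all genes, so the call for Col18a1 did not hold there. Lama5, a laminin chain, was 186, 247 and 418 CPM in the parental libraries and 87.0 and 40.2 CPM with sonidegib (-2.16 ± 0.48, adjusted p = 0.148). Neither chain of collagen IV named by the rule was called in the Ofd1 clones, with Col4a1 at -1.28 ± 0.29 (adjusted p = 0.110) and Col4a2 at -1.37 ± 0.32 (adjusted p = 0.118), while DESeq2 called both lower. DESeq2 also called Lama5, Lama1 and Hspg2 lower with sonidegib, and none in the Sufu clones.

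Of 27 protease activators and other inhibitors, 18 were tested with sonidegib and 19 in the clones, and edgeR called none. At an unadjusted p under 0.05 it held 2 with sonidegib, 4 in the Sufu clones and 3 in the Ofd1 clones, and DESeq2 called 2 in each of the 3 comparisons. Pcsk5, a proprotein convertase, was 7.53, 7.17 and 4.19 CPM in the parental libraries and 13.6 and 18.9 CPM with sonidegib (log2 fold change 1.36 ± 0.37, edgeR adjusted p = 0.217). Plaur, the urokinase receptor, was 1.90, 1.96 and 2.75 CPM in the parental libraries and 7.41 and 5.50 CPM in the Sufu clones (1.56 ± 0.36, adjusted p = 0.333). Serpini1, neuroserpin, was 2.34, 2.79 and 1.12 CPM against 6.18, 7.58, 7.84 and 8.54 CPM in the Ofd1 clones (1.86 ± 0.34, adjusted p = 0.0634). Of 17 ADAM and tolloid metalloproteinases 13 were tested in each comparison and edgeR called none, with 0, 1 and 3 at an unadjusted p under 0.05 for sonidegib, Sufu and Ofd1, and DESeq2 called 1 (Tll1, higher in the Ofd1 clones).

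Of 12 AP-1 and Ets factors, which are known regulators of MMP genes, all were tested and edgeR called none in any comparison. With sonidegib 5 of the 12 lay below the parental libraries without overlap (background 16.3%) and 2 above (background 18%). At an unadjusted p under 0.05, 5 were lower (background 6.86%) and 3 higher (background 7.18%) with sonidegib, 0 in the Sufu clones and 1 in the Ofd1 clones. DESeq2 called 5 lower with sonidegib (Ets1, Etv1, Etv4, Etv5 and Fosl2) and none in the clones. Of these 5 only Fosl2 is an AP-1 factor. Group means of AP-1 factors with sonidegib against parental were higher for Fos (18.9 against 5.84 CPM), Fosb (5.96 against 2.00 CPM) and Jund (252 against 115 CPM). They were lower for Fosl2 (25.8 against 65.7 CPM) and Fosl1 (1.39 against 1.69 CPM). Jun (110 against 104 CPM) and Junb (8.40 against 7.31 CPM) were close. The Ets factor Etv4 was 4.05, 3.53 and 24.6 CPM in the parental libraries and 1.74 and 2.09 CPM with sonidegib (log2 fold change -2.49 ± 0.96, edgeR adjusted p = 0.339). Etv5 was 306, 451 and 802 CPM against 165 and 47.8 CPM (-2.28 ± 0.64, adjusted p = 0.221). Both Ets factors were highest among the parental libraries in replicate 3. So were 16 of the 29 genes of the families that reached 1 CPM, Mmp15 and Adamts15 among them. The share of all genes was not computed, and a link between these genes was not tested.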

How the data were processed

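The authors deposited 1 table of raw read counts by gene symbol for 11 stranded poly(A) libraries (single-end, 1 column each). STAR, DESeq2 and build mm9 are named in the submitters' processing notes, the counting tool, annotation and version numbers being not given in the sources used here. Of 22620 entries, 1 named no gene (0.0131% to 0.0192% of a library's counts) and was left out. Libraries were grouped by their labels, and no 2 libraries held the same values within sampling noise.

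Each pair of groups was tested with edgeR's quasi-likelihood F test (version 4.0.16, R 4.3.3, robust fit, TMM factors, filterByExpr) on the libraries compared, two-sided, with Benjamini-Hochberg adjustment over all genes and calls at an adjusted p under 0.05. The test was checked on simulated counts. The SE is the fold change over the square root of F. DESeq2 1.42.0, median-of-ratios size factors, no filter, a fit over all 11 libraries, left-out libraries, a replicate block, summed R14 libraries and parental replicate 3 alone were the alternatives. Exon lengths were joined by symbol from GENCODE M21, and sequences come from RefSeq (GRCm38.p6). No coordinate was moved between builds.

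Genes and lists were chosen with earlier results of these data known. Described one by one were Mmp15, Adamts14, Adamts15, the 4 Timps, the 5 genes highest per kb, and genes of at least 1 CPM in the mean of either group compared with an absolute log2 fold change of at least 1 and no overlap between groups. Others were named after their values were seen. Limits for a count of 0 cover counting error only, as PCR copies were not marked by molecular identifiers. The counts of the Hedgehog target list are not reported here.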

Additional observations from a re-analysis of the deposited data

Results flagged for a closer look

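Among the 4 Ofd1 libraries, 28 genes of the families were examined for a library far from the other 3, and 5 had one. Of all 12592 genes at 1 CPM or more in the Ofd1 mean, 6.72% had one, where chance gives about 1 in 20 for independent libraries. Here 2 of the 4 libraries share clone R14, so nothing particular to the families is read from the count. Adamts17 was 6.30 CPM in R14 replicate 1 against 1.14 to 1.85 CPM in the others, R14 replicate 2 among them. In R25, Adamts20 was 477 CPM against 178 to 225 CPM, and Adamts5 was 14.1 CPM against 3.34 to 3.85 CPM. Adamtsl4 was 2.28 CPM in R25 against 0.745 to 0.910 CPM, and Mmp19 was 5.66 CPM against 3.31 to 3.67 CPM.

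Mmp14 lay on opposite sides of the parental level in the clone classes: both Sufu libraries lay above all parental libraries and all 4 Ofd1 libraries below them. The difference of Ofd1 minus Sufu was -1.62 on the log2 scale (edgeR adjusted p = 0.288, DESeq2 adjusted p = 7.32e-04, range of adjusted p over the other edgeR settings 0.259 to 0.642).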

How the results depend on the processing

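Of 33 log2 fold changes of named genes, 373 values under alternatives were computed: 341 kept their direction and their side of the threshold, 28 passed the threshold and 4 turned. The log2 fold change of Adamts14 in the Sufu clones (0.18) was -0.054 to 0.68 with 1 library left out and -0.48 against parental replicate 3 alone. That of Adamts14 in the Ofd1 clones (-0.12) was -0.36 to 0.37 with 1 library left out, and that of Mmp15 between Ofd1 and Sufu clones (0.31) was -0.15 to 0.97. The cause was not tested.

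Counts of calls depended on the test and on the libraries. For sonidegib, edgeR called 0 genes of the families, DESeq2 3, edgeR without a filter 2, over all 11 libraries in one fit 3, with sonidegib replicate 1 against parental replicates 1 and 2 (chosen after seeing the data) 6, and with 1 library left out 0 to 9. Over all genes these were 9, 711, 109, 316, 1393 and 0 to 3263. With the replicate block edgeR called 1 gene of the families (Adamts14, log2 fold change -2.85, adjusted p = 0.00665) and 97 genes in all. Deviations of same-numbered libraries correlated at 0.250 for number 1 and -0.334 for number 2. With only 2 sonidegib libraries, their deviations from the group mean mirror each other. These correlations therefore cannot show whether the numbers mark pairs, and the block rests on an unknown pairing.

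In the Sufu clones the families' count was 0 (DESeq2 1, 1 library left out 0) and that of all genes 0 (DESeq2 320, no filter 3, 1 library left out 0 to 11). In the Ofd1 clones the families' count was 0 (DESeq2 5, 1 library left out 0 to 2) and that of all genes 50 (DESeq2 770, no filter 84, one fit 9, R14 summed 1, parental replicate 3 alone 0, 1 library left out 0 to 329). Between clone classes the families' count was 0 (DESeq2 2) and that of all genes 1 (DESeq2 266, no filter 2, R14 summed 0, 1 library left out 0 to 11). Size factors of DESeq2 in edgeR changed no count by over 1.5 times. The number of genes reaching 1 CPM was 29 by group means, 20 in every library, 31 in any library and 27 in the mean of 11.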

Other observations

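Among genes of the families outside the rule for named genes, Mmp24, a membrane-type MMP of neural tissue, was 24.97, 23.6 and 14.8 CPM in the parental libraries and 48.8 and 28.7 CPM with sonidegib (log2 fold change 0.87 ± 0.35, edgeR adjusted p = 0.345). In the Sufu clones it was 31.4 CPM in R13 and 7.14 CPM in R1. Mmp16, another membrane-type MMP, was 15.7 to 37.5 CPM over the 11 libraries and overlapped in every comparison. Adamts10 was 36.2 and 134 CPM in the sonidegib libraries, the second of them the highest of all 11.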
